A study of Mus musculus with 26 samples.

Results

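ERR gamma and a DNA-binding deficient ERR beta were compared as they act in mouse embryonic stem cells (ESCs) that lack ERR beta. The comparison used 6 of the 26 libraries of the series: the 2 libraries of the group KO_ERRg_wt (clones 14-1-10 and 14-11) and the 4 libraries of the group KO_ERRb_DBDm3 (clones 9-6 and 9-8, each sequenced as 2 libraries). The members were chosen by their titles, and the libraries of a clone were summed, which left 4 of the 14 clones and n = 2 clones per group. Every cell in the comparison was Esrrb -/-, carried a doxycycline-inducible construct and was grown with doxycycline at 2 µg/ml for 3 days, in a medium that holds PD and CH, the inhibitors of MEK and GSK3 used for naive ESCs. The construct held wild-type ERR gamma in KO_ERRg_wt and an ERR beta mutant labelled as DNA-binding deficient (DBDm3) in KO_ERRb_DBDm3. The changed residues of the mutant are not given in the sources used here. Each clone is a separately established line, so differences between groups include whatever set the clones apart when they were made. In bulk RNA, fewer cells expressing a gene and less RNA per cell cannot be told apart.

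The estrogen-related receptors (ERRs) are orphan nuclear receptors that bind DNA without a known natural hormone. They recognise a nuclear receptor half-site with extra bases on its 5′ side, and recruit coactivators through the ligand-binding domain. ERR alpha and ERR gamma are best known for switching on mitochondrial energy metabolism in heart, muscle and brown fat. ERR beta is part of the transcription factor network of naive pluripotent cells, where it occupies sites beside Nanog, Klf4 and Tfcp2l1. The comparison sets a receptor that can bind DNA against one labelled as unable to.

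Esrrg, the gene of ERR gamma (mm10 chromosome 1, 187609006 to 188214884, plus strand), had 6381 counts (229 CPM, the count scaled to the library total) in clone 14-1-10 and 3152 counts (126 CPM) in clone 14-11. The 4 libraries of KO_ERRb_DBDm3 held 1 Esrrg count in a total of 98060525, which is 0.0102 CPM with an upper 95% Poisson limit of 0.0568 CPM for counting error alone. Esrrg reads and the construct's label matched in all 6 libraries.

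Esrrb reads (chromosome 12, 86361117 to 86521628, plus strand) were 477 and 470 CPM in the clones with ERR gamma. In the mutant libraries they were 472 and 475 CPM for clone 9-6 and 553 and 540 CPM for clone 9-8. The knockout with an empty construct (KO_mock) had 274 ± 1.26 CPM (SD, n = 2 clones), so the targeted locus was still transcribed. Clones labelled as carrying ERR gamma alone thus had more Esrrb reads than KO_mock, and gene counts do not separate the endogenous locus from a construct. The source of these reads was not tested. Per kilobase of exon, Esrrg was at 41 and 22.5 RPKM in the ERR gamma clones and Esrrb at 103 and 102 RPKM. Esrra, the gene of ERR alpha, was at 29.7 and 25.4 CPM with ERR gamma and at 23.4 to 29.1 CPM with the mutant (adjusted p = 0.591).

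The libraries held 21891602 to 28300776 counts. The 2 ERR gamma clones were close to each other: of 10874 genes outside chromosome 6, 4 (0.0368%) lay 2-fold or more apart, against 434 (3.99%) between the 2 mutant clones. Marker lists placed all 4 clones with ESCs. The summed level of 19 naive pluripotency genes was 3480 and 3460 CPM in the mutant clones and 4220 and 4200 CPM in the ERR gamma clones. This list includes Esrrb, whose reads are not separated from those of a construct. It also includes Nanog and Dppa3 on chromosome 6, which is treated apart below. The part of these genes in the difference was not tested. The sum of 16 general pluripotency genes was 4340 to 4710 CPM. Lists of other cell types had lower sums, the highest being primitive endoderm genes (828 and 513 against 936 and 935 CPM), a list in which Ttr had no counts. Mesoderm genes summed to 33.9 and 10.5 CPM in the mutant clones and 11.9 and 8.84 CPM with ERR gamma, with Hand1 and Msgn1 at 0. Fibroblast genes summed to 178 to 274 CPM, with Postn and Acta2 at 0.

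Chromosome 6 is treated apart, because the median level of its genes differed between the clones. DNA copies were not examined here, so dosage in this text stands for such a shift in expression. Against KO_mock, the median log2 shift of its genes was −0.378 and −0.398 in the ERR gamma clones, −0.406 in clone 9-6 and −0.953 in clone 9-8. The group difference over chromosome 6 was 0.327 on the log2 scale, and it was 0.041 against clone 9-6 and 0.596 against clone 9-8. The next chromosome was 13, at 0.081. Chromosome 8, whose shift both groups share, differed by 0.003 and chromosome 14 by 0.015.

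**Figure D1:**
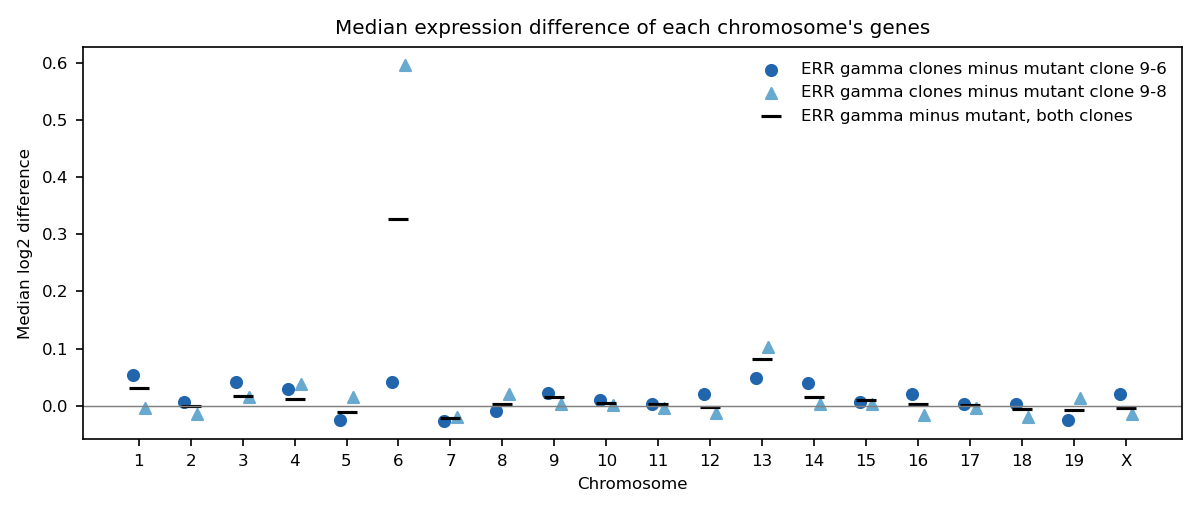
Median log2 difference of the expressed genes of each chromosome, ERR gamma clones minus mutant clone 9-6 (circles), minus mutant clone 9-8 (triangles) and between the group means (short black lines). Chromosome 6 stands at 0.596 against clone 9-8 and at 0.041 against clone 9-6, and all other group differences are at or below 0.081.

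Outside chromosome 6, 1877 of 14502 tested genes (12.9%) were higher with ERR gamma than with the DNA-binding mutant and 1603 (11.1%) were lower, at an adjusted p below 0.05 in edgeR's quasi-likelihood test. By 2-fold or more, 649 (4.48%) were higher and 471 (3.25%) lower. The median log2 fold change of all genes outside chromosome 6 was −0.01. For every called gene the 2 clones of one group lay beyond the 2 of the other. A small p favours such separation, so it adds no support to the calls. The fit took its estimate of spread from all 14 clones. With only the 4 clones compared in the fit, 223 were higher and 118 lower. Without clone 14-1-10 there were 728 higher and 428 lower, and without clone 14-11 780 and 417. Without clone 9-8 there were 1439 higher and 1114 lower, and without clone 9-6 2480 and 2326.

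The 15 genes with the highest fold change outside chromosome 6 (mean log2 CPM of at least 1) are given with CPM scaled by the TMM factors of edgeR, as are all gene levels from here on. Hdac7, a class IIa histone deacetylase, was at 13.8 and 11.2 CPM in the ERR gamma clones and at 1.16 and 0.501 CPM in the mutant clones, a log2 fold change of 3.89 ± 0.399 (SE, adjusted p = 0.000221). Mme, the cell surface peptidase neprilysin, was at 37.2 and 32.0 against 3.89 and 2.75 CPM (3.38 ± 0.19, adjusted p = 9.41e-06). In both of these genes both ERR gamma clones stood above both mutant clones, a separation that the choice of genes required. Padi2 (3.68) and Padi4 (2.76), neighbours on chromosome 4 that encode peptidylarginine deiminases, were both higher. Tgfbi, an extracellular matrix protein, was at 12.8 and 14.8 against 1.38 and 0.819 CPM (3.63 ± 0.349). Atp2a3 (3.32), a calcium pump of the endoplasmic reticulum, Camk2n1 (3.14), an inhibitor of CaM kinase II, and S100a1 (2.92), a calcium-binding protein, were also higher. Also among the 15 highest were Ppp1r14d (3.21), an inhibitor of protein phosphatase 1, Copz2 (2.98), a coat protein of vesicles, B4galnt2 (2.91), a glycosyltransferase, Serpinf1 (2.79), the secreted factor PEDF, Plagl1 (2.67), an imprinted zinc finger gene, and Cpt1b (3.06), described with fatty acid oxidation.

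**Figure D2:**
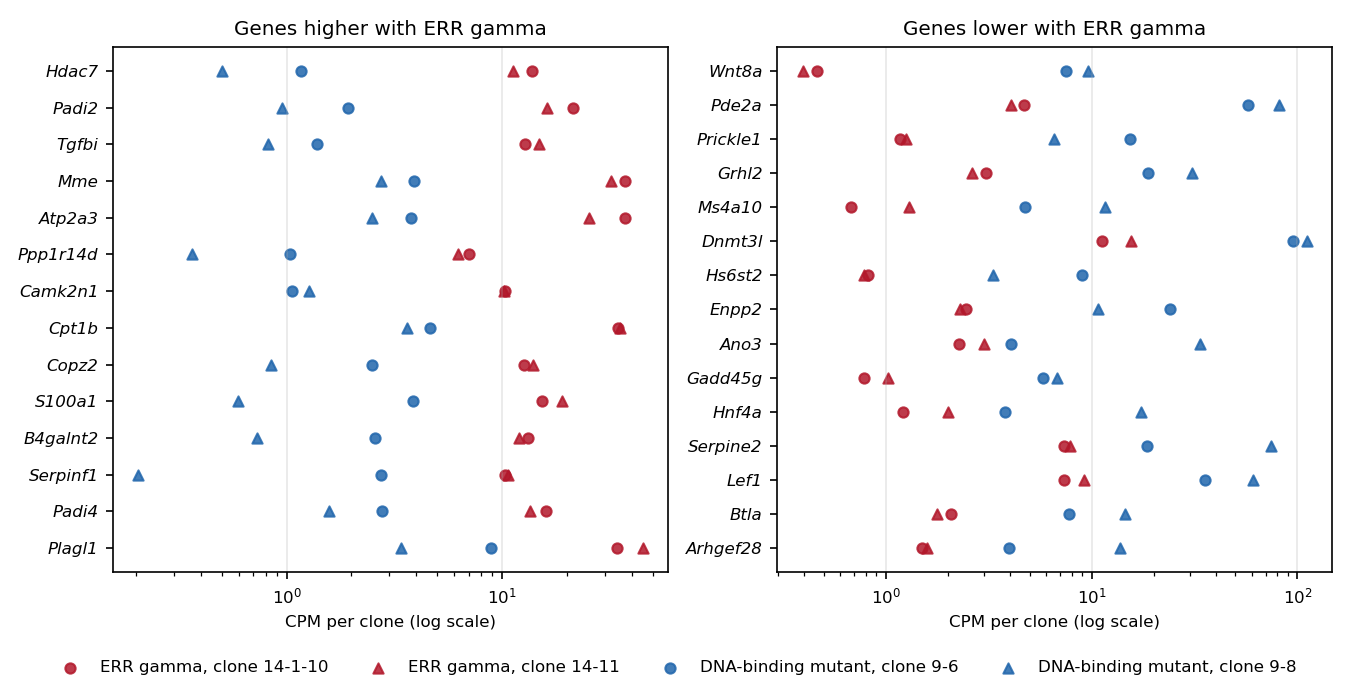
CPM on a log axis in each clone for 14 of the 15 genes with the highest and the 15 with the lowest log2 fold change outside chromosome 6; red marks the 2 ERR gamma clones and blue the 2 mutant clones. Only genes in which the clones of the 2 groups did not overlap could be chosen. The mutant clones lie farther apart in Serpinf1 (2.75 and 0.205 CPM) and Ano3 (4.08 and 33.7 CPM) than in Camk2n1.

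The ERR gamma clones differed 1.84-fold in Esrrg after TMM scaling. Between the same clones the 15 highest genes had a median ratio of 1.1 (0.759 to 1.47), and 9 of the 15 were higher in clone 14-1-10. The choice of these 15 genes favoured agreement between clones, so the ratio cannot tell whether they follow the level of Esrrg. Over 10874 genes outside chromosome 6 the median absolute log2 difference between the 2 ERR gamma clones was 0.071. Both ERR gamma clones were above both KO_mock clones in 15 of the 15 genes, a count that the choice of genes favours. The mutant clones overlapped the KO_mock clones in 9, lay above them in 3 and below them in 3. Over all genes called higher, both ERR gamma clones were above both KO_mock clones in 1636 of 1877 (87.2%), and both mutant clones were below them in 707 (37.7%). For genes called lower, the ERR gamma clones were below KO_mock in 1293 of 1603 (80.7%) and the mutant clones above it in 733 (45.7%). Being called favours these counts as well, and the shares over all tested genes are not given here. The mutant and ERR gamma clones share a shift of chromosome 8 that KO_mock lacks. In both groups the median level of chromosome 6 genes was also below KO_mock, by −0.378 to −0.953 on the log2 scale. The part of these shifts in the counts was not tested.

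The 15 genes with the lowest fold change were chosen in the same way. Wnt8a, a Wnt ligand (chromosome 18, 34542328 to 34548061, plus strand), was at 0.466 and 0.395 CPM with ERR gamma and at 7.49 and 9.6 CPM with the mutant (log2 fold change −4.3 ± 0.574, adjusted p = 0.000897). Pde2a, a phosphodiesterase that breaks down cyclic nucleotides, was at 4.7 and 4.06 against 57.7 and 81.1 CPM (−3.98 ± 0.291, adjusted p = 4.42e-05). For Pde2a the mutant clones also stood above KO_mock (23 and 24.7 CPM), while for Wnt8a they stood below it (17.2 and 12.5 CPM). Prickle1 (−3.17), of planar cell polarity, Grhl2 (−3.1), an epithelial transcription factor, Lef1 (−2.55), a nuclear mediator of Wnt signalling, Gadd45g (−2.8), a stress and growth arrest gene, and Hnf4a (−2.7), an endodermal nuclear receptor, were also lower. So were Enpp2 (−2.87), which makes lysophosphatidic acid, Hs6st2 (−2.93), a heparan sulfate sulfotransferase, Serpine2 (−2.61), a protease inhibitor, Btla (−2.52), an immune receptor, Arhgef28 (−2.52), a guanine nucleotide exchange factor, Ano3 (−2.84), Ms4a10 (−3.05) and Dnmt3l (−2.96). The ERR gamma clones were below both KO_mock clones in 13 of the 15, a count that the choice of genes favours. In these 15 genes the mutant clones overlapped KO_mock in 4, lay above it in 5 and below it in 6. Of the 15 highest genes 9 were called in all 14 alternative settings, and of the 15 lowest 6 were. Serpinf1, S100a1, Ano3, Hnf4a and Serpine2 lost their call when 1 of the 4 clones was left out; Ano3 had an adjusted p up to 0.39 among the alternatives.

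Fatty acid oxidation was one of the groups with the most members called higher. The carnitine shuttle carries long-chain fatty acids into mitochondria, where dehydrogenases, hydratases and thiolases shorten them. Of 19 tested members 11 were higher, 1 was lower and 7 were not called, with a median log2 fold change of 0.29. Over all tested genes outside chromosome 6, 12.9% were called higher and 11.1% lower. Cpt1b, the muscle-type outer-membrane carnitine palmitoyltransferase (chromosome 15, 89416405 to 89425862, minus strand), was at 34.4 and 35.2 CPM with ERR gamma and at 4.65 and 3.64 CPM with the mutant. Its log2 fold change was 3.06 ± 0.362 (adjusted p = 0.000476), and the single mutant libraries ran from 3.12 to 6.35 CPM. Exons of Cpt1b share 94.8% of their bases with the read-through gene ChkbCpt1b, so reads in the shared bases count for both genes. ChkbCpt1b also shares exons with Chkb and counts reads there. Cpt1a, the liver-type enzyme of the same step, was at 156 and 146 against 60.0 and 38.5 CPM (1.61 ± 0.241, adjusted p = 0.00157). Acadl, the long-chain acyl-CoA dehydrogenase, was at 19 and 20 against 9.62 and 6.92 CPM (1.24 ± 0.164, adjusted p = 0.000828). The later enzymes differed less: Acaa2 by 0.72, Decr1 by 0.62, Echs1 by 0.57, Acads by 0.53, Etfdh by 0.38, Hadha by 0.3, Etfa by 0.29 and Hadh by 0.22, all called higher. Cpt1c, the brain-type paralog, was lower (−1.02), with 37.1 CPM in clone 9-6 and 82.8 CPM in clone 9-8 against 29.4 and 29.8 CPM. Cpt2 (0.25), Acadm (0.23), Etfb (0.17), Hadhb (0.09), Eci1 (0.07), Slc25a20 (0.06) and Acadvl (−0.02) were not called. Both ERR gamma clones exceeded both KO_mock clones in 11 of the 11 higher members, beside 87.2% of all genes called higher. Being called higher favours this count. The number of higher members was 9 without clone 9-8, 5 without clone 14-1-10 and 2 with only the 4 clones in the fit.

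Members of a list beyond the 4 with the smallest p were named after their values were seen. The TCA cycle oxidises acetyl-CoA. Of its 22 tested members outside chromosome 6, 10 were higher and 0 lower (median 0.25), beside 12.9% and 11.1% of all tested genes. Idh2, the mitochondrial NADP-dependent isocitrate dehydrogenase, stood apart from the rest at 331 and 335 CPM with ERR gamma and 167 and 129 CPM with the mutant (1.17 ± 0.127, adjusted p = 0.000318). The other 9 differed by 0.23 to 0.4, among them Idh3a (0.38), Dlst (0.3) and Sdhb (0.3). Without clone 9-8 the higher members numbered 7, and without either ERR gamma clone 4. In the respiratory chain, 16 of 49 nuclear-encoded members outside chromosome 6 were higher and 1, Uqcrh (−0.32), was lower (median 0.14). The largest of these differences was 0.43, in Cox5a, a subunit of complex IV. Complex I subunits Ndufa6 (0.35), Ndufc1 (0.35) and Ndufb8 (0.29) and the complex III subunit Uqcrb (0.33) had the smallest p. In Ndufa6 the ERR gamma clones were at 104 and 107 CPM and the mutant clones at 82.0 and 83.6 CPM. These differences were smaller than those of Cpt1b, Cpt1a and Idh2, and the number of higher members fell to 3 without clone 14-11 and to 0 with only the 4 clones in the fit.

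Genes of muscle-type isoforms and sarcomeres were counted next. Of 19 tested members outside chromosome 6 of a list of muscle-type genes 6 were higher, 1 was lower and 12 were not called (median 0.63). Another 8 of its 28 genes were below the filter on counts. Of all tested genes 12.9% were higher and 11.1% lower. Fabp3, the heart-type fatty acid binding protein, was at 53.9 and 64.4 CPM with ERR gamma and at 10.9 and 12.4 CPM with the mutant (2.34 ± 0.201, adjusted p = 0.000121). KO_mock was lower than either, at 4.3 and 4.82 CPM. Cox7a1, the heart and muscle isoform of a complex IV subunit, was at 10.4 and 9.31 against 4.04 and 3.12 CPM (1.46 ± 0.183), and Cox6a2, another such isoform, at 1.22 and 1.62 CPM against 0.285 CPM and no counts. Pygm (1.45), Des (1.12) and Casq1 (0.78) were higher and Actn2 (−1.9), a sarcomere protein at under 1 CPM, was lower. Troponins and myosin light chains, among them Tnnc1 (0.18), Tnni3 (0.55) and Myl7 (0.66), were not called. Without either ERR gamma clone 2 members were higher, and without clone 9-8 4.

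Glycolysis, the cytosolic breakdown of glucose, divided. Outside chromosome 6, 5 of 14 tested members were lower and 2 higher (median 0.01). Over all tested genes 11.1% were lower and 12.9% higher, so the share of higher members was near that of all genes. Pfkl was at 145 and 134 CPM with ERR gamma and 197 and 232 CPM with the mutant (−0.62 ± 0.0885), and Pkm at 2590 and 2360 against 3060 and 3350 CPM (−0.37 ± 0.0668). Ldha (−0.63), Pfkm (−0.65) and Eno1 (−0.44) were lower as well; Eno1 shares 92.8% of its exon bases with Eno1b. Hk1, the first enzyme of the pathway, was higher at 126 and 117 against 75.5 and 58.0 CPM (0.86 ± 0.151), as was Eno3 (0.91). Without either ERR gamma clone 3 members were lower and 1 was higher.

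The largest share of a list called higher was in the genes of the integrated stress response. ATF4 is a transcription factor made when translation initiation is limited, and it drives amino acid synthesis and transport. Outside chromosome 6, 12 of 15 tested members were higher and 1 was lower (median 0.84), beside 12.9% and 11.1% of all tested genes. Ddit3, which encodes CHOP, was at 29.7 and 31.8 CPM with ERR gamma and 9.35 and 6.49 CPM with the mutant (1.95 ± 0.278, adjusted p = 0.00123). Psph, of serine synthesis, was at 53.1 and 51.8 against 31.4 and 27 CPM (0.84 ± 0.106), and Atf4 itself at 634 and 626 against 459 and 326 CPM (0.68 ± 0.12). Nupr1 (2.24), Trib3 (1.59), Chac1 (1.66), Vldlr (1.79), Shmt2 (0.84) and Slc3a2 (0.53) were also higher. Mutant clone 9-8 was the lowest of the 4 clones in all of these genes: Nupr1 was at 33.7 CPM in clone 9-6 and 9.49 CPM in clone 9-8, against 103 and 102 CPM with ERR gamma. KO_mock lay near clone 9-6 for Nupr1 (37.4 and 39.3 CPM). Of the 12 higher members, 11 were above both KO_mock clones in both ERR gamma clones, beside 87.2% of all genes called higher. Without clone 9-8 the number higher was 10, without either ERR gamma clone 8, and with only the 4 clones in the fit 2.

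Target genes of p53, the DNA damage response factor, had the largest share called lower, 9 of 14 with 1 higher (median −0.64). Of all tested genes 11.1% were lower and 12.9% higher. The count of p53 targets changed with single clones. Plk2, a kinase induced by p53, was at 19.8 and 21.4 CPM with ERR gamma, 38.2 CPM in clone 9-6 and 145 CPM in clone 9-8 (−2.15 ± 0.517). Trp53inp1 was at 397 and 436 CPM with ERR gamma and 528 and 975 CPM in the mutant clones (−0.85), and Zmat3 at 81.8 and 79.5 against 102 and 165 CPM (−0.73). In these genes clone 9-8 was the highest. Cdkn1a (−0.33), the cell cycle inhibitor p21, and Eda2r (−0.31) were slightly higher in clone 9-6 than in clone 9-8 and lower with ERR gamma. Sesn1 was higher (0.63). The lower members numbered 2 without clone 9-8 and 0 without either ERR gamma clone.

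**Figure D3:**
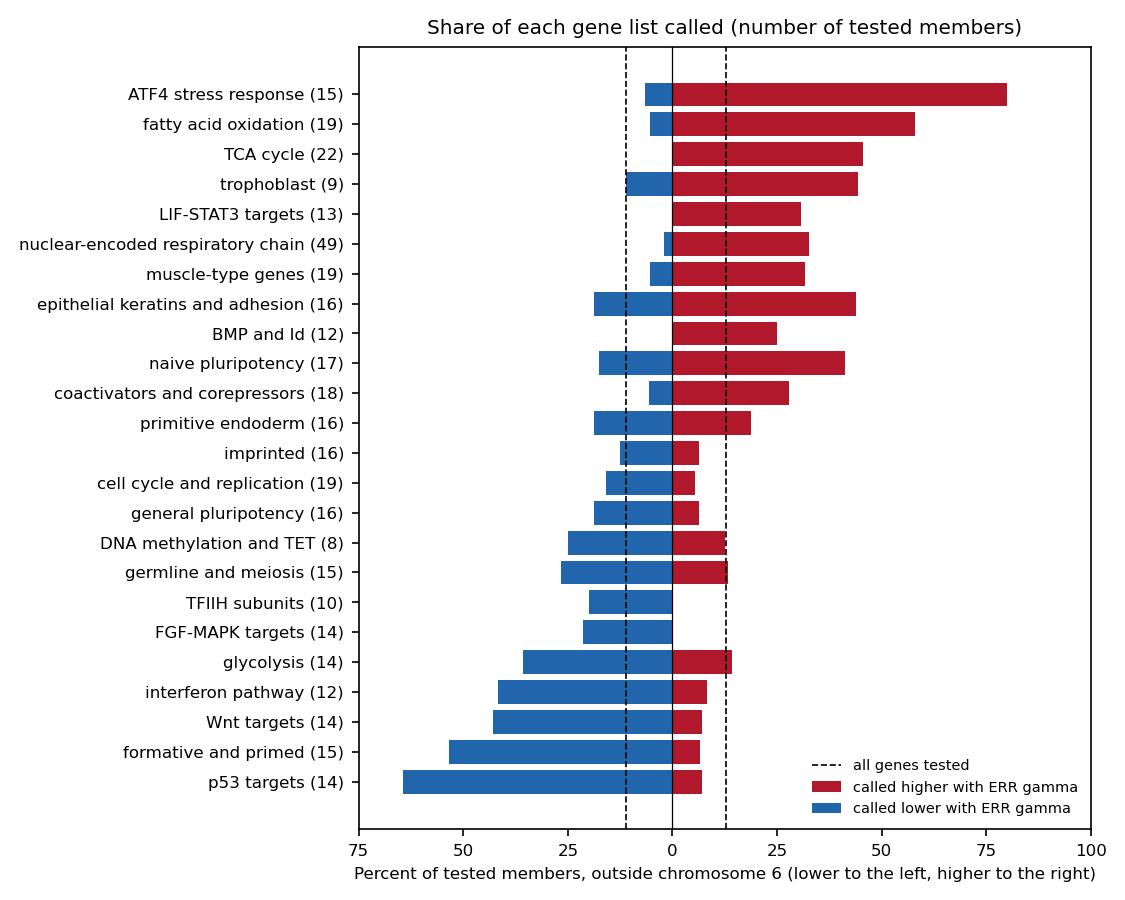
Percent of the tested members of each list called higher (red, to the right) or lower (blue, to the left) with ERR gamma, outside chromosome 6, for lists with at least 8 tested members; dashed lines mark the 12.9% and 11.1% of all tested genes. ATF4 response, fatty acid oxidation and TCA cycle genes lie farthest to the right, and p53 targets, formative genes and Wnt targets farthest to the left.

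Cells express genes of the formative and primed states as they leave naive pluripotency. Of 15 tested members 8 were lower and 1 higher (median −0.88), beside 11.1% and 12.9% of all tested genes. Dnmt3b, a de novo DNA methyltransferase, was at 71.5 and 75.4 CPM with ERR gamma and 375 and 261 CPM with the mutant (−2.11 ± 0.261, adjusted p = 0.000591). Its cofactor Dnmt3l was at 11.2 and 15.5 against 95.4 and 111 CPM (−2.96 ± 0.214, adjusted p = 4.42e-05), and KO_mock was higher still, at 342 and 349 CPM. Dnmt3l is not in the formative list but in a list of DNA methylation and TET genes. Of 8 tested members of that list outside chromosome 6, 1 was higher and 2 were lower, beside 12.9% and 11.1% of all tested genes. The other de novo enzyme, Dnmt3a, was not called (0.02), nor were Dnmt1 (0.09) and Tet1 (0.09), while Tet2, a methylcytosine oxidase, was higher at 121 and 114 against 34.8 and 59.5 CPM (1.32 ± 0.224). In the formative list, Lefty1, an inhibitor of Nodal, was at 92.9 and 87.2 against 176 and 165 CPM (−0.92 ± 0.195). The mutant clones were above KO_mock (40.8 and 45.6 CPM) for this gene. Zic2 (−0.88), Nodal (−0.49), Fgf5 (−2.59) and Sox3 (−1.78) were lower, the last 2 below 4 CPM in all clones. Otx2 (−0.9) and Pou3f1 (−0.44), factors of the same transition, did not pass the test. The lower members numbered 4 without clone 9-8, 4 without clone 14-1-10 and 3 without clone 14-11.

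Wnt target genes were lower in 6 of 14 tested members and higher in 1 (median −0.52), beside 11.1% and 12.9% of all tested genes. All the cells received the GSK3 inhibitor CH. Lef1 was at 7.31 and 9.19 CPM with ERR gamma and 35.5 and 61.0 CPM with the mutant (−2.55 ± 0.361, adjusted p = 0.00122). Notum, a secreted Wnt inhibitor, was at 36.2 and 29.8 against 79.9 and 146 CPM (−1.78 ± 0.251), and Ccnd1, encoding cyclin D1, at 181 and 175 against 276 and 250 CPM (−0.56 ± 0.0924). Dkk1 (−2.92), Sp5 (−2.23) and Axin2 (−0.48) were lower; Bmp4 was higher (1.52 ± 0.237). T (brachyury, −2.18) and Rnf43 (−1.1) were not called. Mycn, listed with the cell cycle genes, was at 91.3 and 93.0 against 243 and 234 CPM (−1.37 ± 0.134, adjusted p = 0.000208), and Ccnd3 was higher (0.86). Cyclin-dependent kinases and replication factors, such as Cdk1 (0.03), Cdk2 (0.09) and Mcm5 (−0.06), were not called. In that list 3 of 19 members outside chromosome 6 were lower and 1 higher, to be read beside the same 11.1% and 12.9%.

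Naive pluripotency genes had more members higher than lower: outside chromosome 6, 7 of 17 tested were higher, 3 lower and 7 not called (median 0.34). Over all tested genes 12.9% were higher and 11.1% lower, so no result is read from the 3 lower members. Tfcp2l1, a core factor downstream of LIF, was at 996 and 990 CPM with ERR gamma and 710 and 609 CPM with the mutant (0.59 ± 0.0713, adjusted p = 0.000486). Klf4 was at 148 and 150 against 88.6 and 63.1 CPM (0.97 ± 0.151), and Klf5 at 87.1 and 98.7 against 59.9 and 53.1 CPM (0.72 ± 0.0904). Tcl1 (1.41), Tbx3 (1.31), Tet2 (1.32) and Zfp57 (0.6) were higher, whereas Sox15 (−1.25 ± 0.145), Klf2 (−0.77) and Dppa4 (−0.39) were lower. Without clone 9-8 6 were higher and 1 lower, without clone 14-1-10 6 and 1, and without clone 14-11 7 and 1. Among general pluripotency factors, Pou5f1 (−0.14) and Sox2 (−0.29) were not called, Dppa5a was higher (0.73) and Lin28a (−0.69) and L1td1 (−0.46) were lower. Of LIF-STAT3 targets 4 of 13 were higher and 0 lower, of FGF-MAPK targets 3 of 14 were lower and 0 higher, beside 12.9% and 11.1% of all tested genes. The LIF-STAT3 targets called higher numbered 2 without clone 14-11 and 8 without clone 9-6, and the FGF-MAPK targets called lower 1 without clone 14-1-10 and 2 without clone 14-11, with 3 called higher without clone 9-6. Dusp4, a phosphatase of the FGF-MAPK list, was at 8.46 and 9.67 against 23.9 and 24.7 CPM (−1.42 ± 0.273).

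Epithelial genes and markers of other lineages contained single members that differed strongly. Of 16 keratin and adhesion genes 7 were higher and 3 lower. Dsp, the desmosome protein desmoplakin, was at 44.7 and 43.1 CPM with ERR gamma and 9.12 and 10.2 CPM with the mutant (2.18 ± 0.285, adjusted p = 0.000811), Krt8 (2.28) and Krt7 (1.59) were higher, and Itga1 was lower (−2.25 ± 0.318). Without clone 14-1-10 3 of these genes were higher and 1 lower. Sox7, an endodermal transcription factor, was at 4.95 and 5.01 against 0.19 and 0.0683 CPM (5.2 ± 0.653), but 3 of 16 primitive endoderm genes were higher and 3 lower. Ncam1, a neural adhesion molecule, was at 29.1 and 33.7 against 10.0 and 9.08 CPM (1.72 ± 0.176), and Sox1 at 1.51 and 1.38 against 0.209 and 0.205 CPM (2.79 ± 0.282). Of interferon pathway genes 5 of 12 were lower and 1 higher, among them Ifitm1 (−0.65) and Ifitm3 (−0.76); without clone 14-1-10 0 were lower, and without clone 14-11 2. Of nuclear receptor coactivators and corepressors 5 of 18 were higher, Ncoa6 (0.6) and Nrip1 (0.6) with the smallest p, and 1 was lower. Without either ERR gamma clone 2 of them were higher, and without clone 9-6 3. The TFIIH subunits Gtf2h1 (−0.28) and Gtf2h3 (−0.23) were lower and the other 8 of 10 were not called; 0 were lower without clone 14-1-10, 14-11 or 9-6. Of the remaining lists outside chromosome 6, 4 of 9 trophoblast genes were higher and 1 lower, 3 of 12 BMP and Id genes higher and 0 lower, 2 of 15 germline genes higher and 4 lower, 1 of 16 imprinted genes higher and 2 lower, 1 of 6 mesoderm genes higher and 1 lower, 2 of 6 neuroectoderm genes higher and 0 lower, and 1 of 5 fibroblast genes higher and 1 lower; 0 of 3 genes of the 2-cell-like list were called. All list counts of this paragraph are to be read beside the 12.9% and 11.1% of all tested genes. Some genes are in more than 1 list, so the list counts are not independent of each other. Krt8 is in the keratin and trophoblast lists, Eomes in the trophoblast and mesoderm lists and Bmp4 in the Wnt and BMP lists. Lef1 is in the formative and Wnt lists, and Tfcp2l1 and Klf4 are in the naive and LIF-STAT3 lists. Without either ERR gamma clone 0 germline genes were lower, and without clone 9-8 1. Trophoblast genes called higher numbered 1 without clone 14-1-10 and 2 without clone 9-8, and fibroblast genes called higher 0 without any 1 of the 4 clones. Of primitive endoderm genes 1 was lower without either ERR gamma clone and 5 were higher without clone 9-6.

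On chromosome 6, 160 of 736 tested genes (21.7%) were higher with ERR gamma and 35 (4.76%) lower, with a median log2 fold change of 0.272. The chromosome-wide difference of clone 9-8 enters each of these calls. Vwf, von Willebrand factor, was at 22.7 and 19.1 CPM with ERR gamma against 6.45 and 4.57 CPM (1.92 ± 0.221), and Bcl2l14, a relative of BCL2, at 34.3 and 30 against 8.16 and 2.98 CPM (2.52 ± 0.361). Vax2os (2.51), Reep1 (1.94) and St8sia1 (1.77) were the other highest. Nanog was at 944 and 913 against 717 and 689 CPM (0.4 ± 0.0628), and it was not called once each clone's chromosome 6 counts were offset by their median shift, nor were Slc2a3 (0.62) and Pdk4 (1.0). Peg10 (−1.61), Trh (−1.44), Cxcl12 (−2.2), Rtkn (−1.99) and Dppa3 (−1.38) were lower against the direction of the chromosome, and 0 of these 5 were called in all 14 alternative settings. Rtkn lost its call without clone 9-8, 14-1-10 or 14-11, and Cxcl12 without clone 9-6, 14-1-10 or 14-11. Trh lost it without clone 14-11 and Dppa3 without clone 14-1-10. Peg10, an imprinted gene, was at 131 and 98.0 against 480 and 220 CPM. With the offset, 111 genes of chromosome 6 were higher and 82 lower. Without an offset, 415 were higher when clone 9-6 was left out, 87 without clone 9-8, 45 without clone 14-1-10 and 55 without clone 14-11.

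KO_ERRb_wt, knockout clones given back unmutated ERR beta, was set against KO_mock, a contrast with no clone in common with the one above. There 157 of 14502 genes outside chromosome 6 (1.08%) were higher and 114 (0.786%) lower. Of the 157 genes, 131 were also higher with ERR gamma than with the mutant, which is 83.4% of the ERR beta list and 6.98% of the ERR gamma list. Of the 114 lower genes 74 were lower in both, 64.9% of the ERR beta list and 4.62% of the ERR gamma list. The ERR beta list itself changes when a clone of the other contrast is left out, because all clones share the estimate of spread. Without clone 14-1-10 56 of 68 higher and 26 of 51 lower genes were shared (82.4% and 51%), and without clone 14-11 58 of 68 and 25 of 51 (85.3% and 49%). Without clone 9-6 the shared genes were 357 of 601 and 277 of 522 (59.4% and 53.1%), and without clone 9-8 381 of 598 and 255 of 524 (63.7% and 48.7%). The gene Hspb8, a small heat shock protein, went the other way (−0.33 with ERR beta and 0.23 with ERR gamma). The median log2 fold change of the 157 genes was 0.93 in their own comparison and 1.04 between ERR gamma and the mutant, and that of the 114 genes −0.75 and −0.54. The 8 shared genes with the highest fold change included Hdac7, Padi2, Mme, Camk2n1, Cpt1b, Dbn1 and Elovl7, and the 8 with the lowest were Pde2a, Gadd45g, Esrp1, Itga1, Lats2, Plcxd1, Kitl and Zp3. All 16 were called for ERR gamma against the mutant in each of the 14 alternative settings. Of the 15 highest genes described above 6 were called with ERR beta, and of the 15 lowest 2.

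**Figure D4:**
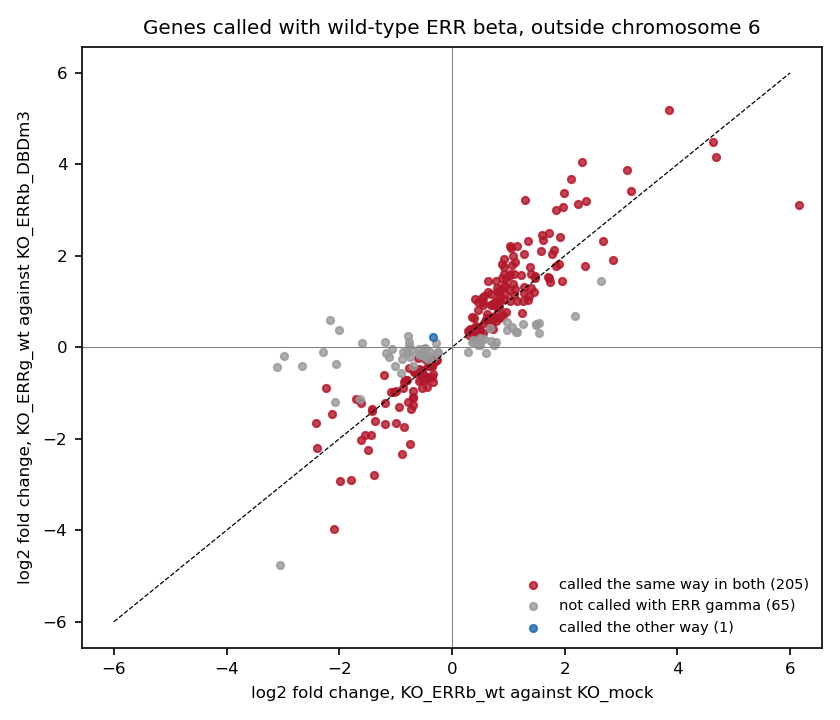
Log2 fold change of genes outside chromosome 6 that were called in KO_ERRb_wt against KO_mock (x axis), set against their log2 fold change in KO_ERRg_wt against KO_ERRb_DBDm3 (y axis); the dashed line marks equal values. Red points (205) were called the same way in both, grey points (65) were not called with ERR gamma and 1 blue point went the other way.

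The level reached with each receptor was compared directly between KO_ERRg_wt and KO_ERRb_wt, where 2020 of 14502 genes outside chromosome 6 (13.9%) were higher with ERR gamma and 1576 (10.9%) lower; these groups also differ in the dosage of chromosomes 6 and 8. Of the 131 shared higher genes 61 were at a higher level with ERR gamma and 7 at a lower one, and of the 74 shared lower genes 18 were lower and 15 higher. Cpt1b was at 13.6 and 7.59 CPM with ERR beta, against 34.4 and 35.2 CPM with ERR gamma (1.71 ± 0.338, adjusted p = 0.00447). Mme was at 14.3 and 11.2 CPM with ERR beta (1.44 ± 0.173, adjusted p = 0.000241). Hdac7 was at 9.09 and 5.92 CPM with ERR beta, and its difference from ERR gamma (0.74 ± 0.338) did not pass (adjusted p = 0.136). Esrp1, a splicing factor of epithelial cells, was at 27.7 and 25.6 CPM with ERR beta, 50.1 and 48.3 CPM in KO_mock and 9.75 and 9.63 CPM with ERR gamma (−1.46 ± 0.12, adjusted p = 3.92e-05). Pde2a was at 3.97 and 7.19 CPM with ERR beta, close to ERR gamma (−0.34 ± 0.295, adjusted p = 0.426). Tgfbi was not called with ERR beta (−0.43, adjusted p = 0.547), and its level there was 0.702 and 0.949 CPM against 12.8 and 14.8 CPM with ERR gamma (4.06 ± 0.36). Dnmt3l was likewise not called with ERR beta (−0.77, adjusted p = 0.0623), at 181 and 223 CPM.

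**Figure D5:**
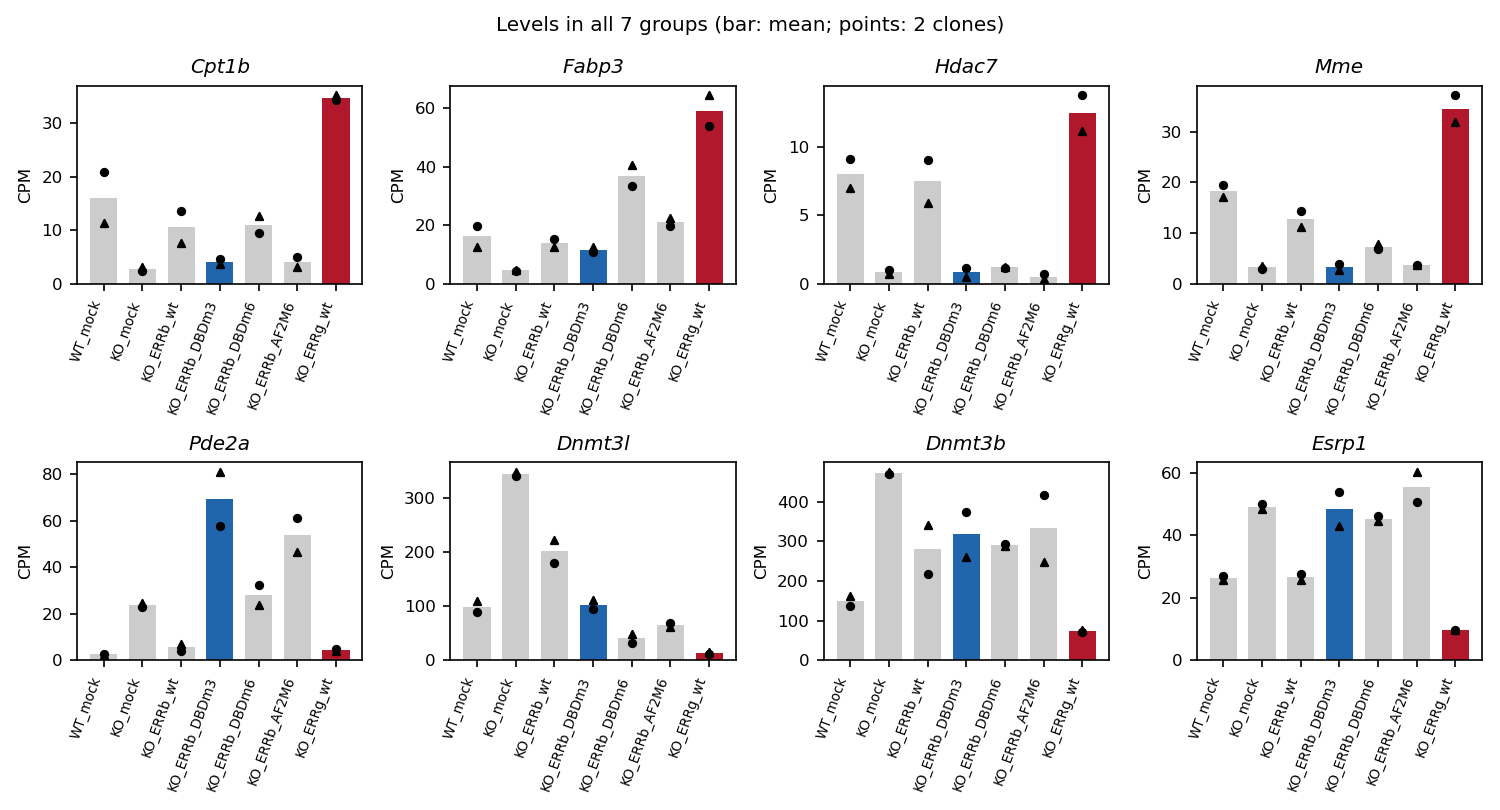
CPM of 8 genes in all 7 groups; bars are group means, points the 2 clones, red KO_ERRg_wt and blue KO_ERRb_DBDm3. Cpt1b, Fabp3, Hdac7 and Mme are highest with ERR gamma (34.4 and 35.2 CPM for Cpt1b), and Dnmt3l, Dnmt3b and Esrp1 are lowest with it.

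The genes whose clone levels followed Cpt1b most closely over the 12 knockout clones were Sema4g (Pearson r = 0.987), ChkbCpt1b (0.982), Fam69b (0.98), Sh2d4a (0.976), Myo18a (0.975), Srgap1 (0.975), Slc44a2 (0.975) and Prkra (0.971), among genes called between ERR gamma and the mutant. These correlations describe the clones and rest in part on the difference between the groups. ChkbCpt1b counts reads of Cpt1b in their shared exons. Sema4g, a semaphorin, was at 17.4 and 14.3 CPM with ERR gamma and 3.36 and 3.48 CPM with the mutant (2.21 ± 0.26), and Slc44a2, a choline transporter, at 71.3 and 68.6 against 36.6 and 29.4 CPM (1.08 ± 0.193).

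The sequence that ERRs bind was looked for in promoter windows, since one of the receptors compared is labelled as unable to bind DNA. The windows, from RefSeq on GRCm38.p6 (the assembly of mm10), run from 250 bases before to 50 bases after a gene's start, and 10546 of the 14502 tested genes outside chromosome 6 had one. The extended half-site TCAAGGTCA, on either strand, was in a window of 34 of these genes (0.322%), of 5 of 1404 genes called higher (0.356%), of 3 of 471 genes higher by 2-fold (0.637%) and of 4 of 1180 genes called lower (0.339%). The shorter AAGGTCA, which TCAAGGTCA contains, was in 4.17% of all, 4.42% of higher and 4.32% of lower genes. Of the 102 genes with a window that were higher with both receptors, 0 held TCAAGGTCA and 4 (3.92%) held AAGGTCA. Of 73 named higher genes 57 had a window, and 0 of these held TCAAGGTCA, so no promoter of a named gene is shown. Cpt1b, Camk2n1 and Idh3a were among the genes without a window, so their promoters were not searched. Among the energy metabolism lists, here with their members on chromosome 6, 29 of 40 higher members had a window, and 0 of these held AAGGTCA. Of 56 members not called higher 50 had a window, and 5 of these held it (Acadm, Atp5e, Atp5g3, Ogdh and Sdhd). Atp5g3 and Sdhd held the full TCAAGGTCA, and neither was called (log2 fold changes of 0.08 and −0.12). Sites outside these windows were not examined.

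The 3 genes that were 2-fold higher and held TCAAGGTCA are shown with the 25 bases on each side that lie in the window, beside Atp5g3, an ATP synthase subunit that held it and was not called; they were chosen after their values were seen. Each runs 5′ to 3′ on the gene's strand, and capitals mark the half-site, TGACCTTGA being its reverse complement.
Gpr161: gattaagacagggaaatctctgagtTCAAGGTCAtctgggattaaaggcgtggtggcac
Gjb1: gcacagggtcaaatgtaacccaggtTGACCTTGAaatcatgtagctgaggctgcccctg
Fam131c: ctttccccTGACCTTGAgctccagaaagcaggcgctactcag
Atp5g3: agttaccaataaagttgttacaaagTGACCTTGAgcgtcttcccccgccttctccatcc
The stretch of Gpr161, a ciliary receptor, is chr1:165295658-165295716 on the plus strand, and the gene was at 2.94 and 2.76 CPM with ERR gamma against 1.86 and 0.91 CPM (1.03 ± 0.33, adjusted p = 0.0427). That of Gjb1, the gap junction protein connexin 32, is chrX:101381985-101382043 on the plus strand, and the gene was at 1.0 and 1.18 against 0.266 and 0.273 CPM (2.01 ± 0.524, adjusted p = 0.0187). That of Fam131c is chr4:141367942-141367983 on the plus strand, with the gene at 1.15 and 1.22 against 0.455 and 0.114 CPM (2.0 ± 0.529, adjusted p = 0.0198). That of Atp5g3 is chr2:73911345-73911403 on the minus strand, with the gene at 201 and 195 against 194 and 180 CPM (0.08 ± 0.0687, adjusted p = 0.42). All 3 higher genes were at low levels, and none of them was called between KO_ERRb_wt and KO_mock.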

How the data were processed

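Total RNA depleted of ribosomal RNA was sequenced as single 100 bp reads. Per the submitters' processing notes the authors aligned reads with STAR 2.7.8a to mm10 and counted them in exons with featureCounts, given as 2.0.10 there and as 2.0.1 in the file header. The deposited values are raw counts per gene, reverse-stranded, with a read that overlaps several genes counted in each, per the file headers. Here the libraries of each clone were summed (26 libraries, 14 clones, 7 groups of 2 clones). edgeR 4.0.16 in R 4.3.3 (filterByExpr, TMM, robust quasi-likelihood fit over all 14 clones, Benjamini-Hochberg) tested 15238 of 24421 genes and was tested on simulated data. Calls required an adjusted p under 0.05. Since only clones replicate a group, p-values reflect how clones vary, and intervals cover counting error only. DESeq2 1.42.0, other filters and scalings, a chromosome 6 offset, single libraries, fewer clones and leave-one-out were alternatives.

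Named genes had to be called, to average 1 or more in log2 CPM and to have clones that do not overlap. They were the 15 highest and 15 lowest outside chromosome 6, 5 and 5 on it, 8 and 8 shared with the ERR beta contrast, 8 most like Cpt1b, and up to 4 per list by p. Predicted genes were passed over, and other genes named were chosen after their values were seen. The members and lists were chosen with earlier results of these data known. Promoter windows were matched by symbol to RefSeq on GRCm38.p6. A few genes that the rule names or the lists hold are counted but not reported here by name.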

Additional observations from a re-analysis of the deposited data

Results flagged for a closer look

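Of the genes called the same way with both receptors, 9 of those named reached a level with ERR gamma that differed from the level with wild-type ERR beta, by edgeR's test of that difference (log2, KO_ERRg_wt minus KO_ERRb_wt). The differences were 1.71 for Cpt1b, 1.69 for Camk2n1, 1.44 for Mme, 1.28 for Padi2 and 1.26 for Elovl7, an enzyme of fatty acid elongation. Among lower genes they were −1.63 for Lats2, a kinase of the Hippo pathway, −1.46 for Esrp1, −1.4 for Itga1 and −0.94 for Kitl, the ligand of KIT. These groups also differ in chromosome 6 and 8 dosage, whose part in the result was not tested.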

How the results depend on the processing

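No paired analysis was possible because the ERR gamma titles carry no replicate number and the numbers of the other groups mark repeat libraries of a clone. No named gene reversed its direction under the 14 alternatives. With only the 4 clones compared, 223 genes were higher and 118 lower outside chromosome 6 (149 and 63 by 2-fold) and 12 and 3 on it. With the second library of each clone there were 1147 and 906 outside chromosome 6 and 98 higher on it, and 37 higher and 25 lower genes were shared with the ERR beta contrast. DESeq2 gave 320 and 273 shared genes. With the chromosome 6 offset 82 genes of that chromosome were lower. For these the cause was not tested, except that the smaller fits hold fewer clones or reads. Leave-one-out, in which the lone clone of an arm is assumed to vary like the other groups, gave 728 to 2480 higher and 417 to 2326 lower genes outside chromosome 6, 383 to 927 and 164 to 785 by 2-fold, 45 to 415 and 13 to 58 on chromosome 6, and 56 to 381 and 25 to 277 shared. Of 140 named called genes, 39 lost their call without clone 14-1-10, 39 without clone 14-11, 18 without clone 9-8 and 7 without clone 9-6.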
